A study of Mus musculus with 6 samples.

Results

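Genes for making and binding the glycosaminoglycans of the cell surface were examined in NMuMG, a mouse mammary gland cell line of epithelial origin, through 9 members: the hyaluronan synthases Has1, Has2 and Has3, the hyaluronan receptor Cd44, the hyaluronan-binding proteoglycan versican (Vcan), and the syndecans Sdc1, Sdc2, Sdc3 and Sdc4. The 9 genes were listed by name, with earlier results of these data known, and all 9 were found among the 18512 entries of the count table. All cells were serum-starved for 4 h. They then received the solvent (DMSO group), 5 ng/ml of TGF-β (TGF-β group), or the same dose of TGF-β plus 50 uM 2APB, a modulator of store-operated calcium entry (TGF-β+2APB group). The text of the study states 24 h of treatment in one place and 2APB ahead of TGF-β in another, so the timing is not settled, and no group with 2APB alone was analysed here. RNA of 2 biological replicates per group gave 6 libraries in 3 groups, and both treated groups were compared with the same DMSO libraries.

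Hyaluronan is a long, unsulfated sugar chain that the HAS enzymes build at the plasma membrane from UDP-glucuronic acid and UDP-N-acetylglucosamine and push out of the cell. CD44 binds it at the surface and links through ERM proteins to actin, and versican holds it in the pericellular matrix. Syndecans are transmembrane core proteins whose heparan sulfate chains bind growth factors and matrix, and Has2 is a known target of TGF-β in NMuMG cells during the epithelial-mesenchymal transition.

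The libraries held between 71840570 and 79473182 counts, and the 10 most abundant genes took 6.35% to 7.4% of them. Every deposited count was even, so the smallest count above 0 was 2. Normalized counts are TMM-scaled counts at the mean library size, and 13353 genes that averaged 20 or more of them were tested. A gene is called here at a false discovery rate (FDR) of 0.05 or less in the quasi-likelihood F-test of edgeR over all 13353 genes. Over these 13353 genes the log2 difference between replicates, on normalized counts plus 1, had an SD of 0.334 in DMSO, 0.567 in TGF-β and 0.78 in TGF-β+2APB. Smad7, an inhibitory Smad that TGF-β induces, was higher than in DMSO by 1.39 on the log2 scale in TGF-β+2APB (FDR 8.61e-05) and by 1.0 in TGF-β (FDR 0.000405). Skil, another TGF-β target, was higher than in DMSO by 1.62 in TGF-β+2APB (FDR 0.00195) and by 0.77 in TGF-β (FDR 0.035). All 5 epithelial markers (Epcam, Cdh1, Krt8, Krt18, Krt7) had means over 20 in every group and summed to 489400 to 521100 normalized counts in DMSO, 697400 to 816400 in TGF-β and 1311000 to 1381000 in TGF-β+2APB. Krt8 and Krt18 held most of that sum and were higher in both treated groups, whereas Epcam and Cdh1 were lower. The list of 8 mammary markers had 2 that passed the filter, and the milk protein genes Csn2 and Wap were absent or at 0. The 5 hepatocyte markers (Alb, Apoa1, Ttr, Fga, Hnf4a) summed to 96790 to 103900 normalized counts in DMSO, 14170 to 19370 in TGF-β and 8535 to 11460 in TGF-β+2APB, where Fga was at 0. Of 5 fibroblast markers 2 were tested, Lum was absent or at 0 in all groups and Thy1 at 0 in DMSO, and the list summed to 131.7 to 150.8 in DMSO, 1712 to 1822 in TGF-β and 1902 to 2439 in TGF-β+2APB. Col1a1 alone went from 51.1 and 74.38 in DMSO to 1625 and 1724 in TGF-β, where Pdgfra, at 85.71 and 93.38, stayed near its DMSO counts of 76.65 and 76.44. In TGF-β+2APB, Pdgfra was higher, at 283.1 and 248.6, and Col1a1 stood at 2154 and 1645. There 2 of the 2 tested fibroblast markers were called higher against DMSO, and 1 against TGF-β. Of 5 haematopoietic markers 2 were tested, Adgre1 was absent or at 0 in all groups, and the sum ran from 203.4 to 477.6 in DMSO and TGF-β and from 166.3 to 1395 in TGF-β+2APB. The high value was that of replicate 2 of TGF-β+2APB, which held 741.8 normalized counts of Ptprc and 619.5 of Cd68, against 35.64 and 118.8 in replicate 1. The part of these markers in the values that follow was not tested. In bulk RNA, fewer cells of a type and less RNA per cell cannot be told apart.

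With TGF-β against DMSO, 5 of the 9 genes rose: Has2, Has3, Cd44, Sdc2 and Sdc3. None of the 9 fell, while Has1, Vcan, Sdc1 and Sdc4 did not pass the test. Over all genes tested, 41.5% were called in this comparison, 21.8% as higher and 19.7% as lower. The median log2 fold change of the 9 genes was 1.0, against -0.01 over all genes tested, and it is the same with Has2 at its lower bound. The libraries of the 2 groups did not overlap for 8 of the 9 genes, as for 72.5% of all genes tested.

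With TGF-β+2APB against DMSO, 7 of the 9 genes were called where 52.8% of all genes were. Of these, 6 rose (Has2, Has3, Cd44, Sdc1, Sdc2, Sdc3) and Sdc4 fell, against a background of 25.6% higher and 27.2% lower, and the median log2 fold change was 0.59 against 0.00 over all genes. All 9 genes had groups that did not overlap, as had 86.0% of all genes.

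When TGF-β+2APB was compared with TGF-β alone, Sdc3 rose and Sdc4 fell, and the other 7 genes did not pass the test. Of all genes, 17.5% were called in this comparison, 6.58% higher and 10.9% lower. The median log2 fold change of the 9 genes was -0.08, beside 0.00 over all genes. For 5 of the 9 genes the groups did not overlap, as for 58.0% of all genes. The count of 2 became 0 without either DMSO library or replicate 1 of TGF-β+2APB and 4 without replicate 2 of TGF-β, and in the first 3 of these fits 4 of the 9 had an unadjusted p under 0.05. Over all genes, 6.46% and 6.26% were called without a DMSO library, 7.38% without replicate 1 of TGF-β+2APB and 40.4% without replicate 2 of TGF-β, where 8 of the 9 were tested. All 9 genes passed the filter on the mean, but Has1 with a mean of 15.1 and Has2 with 0 in DMSO passed it through their treated groups.

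**Figure D1:**
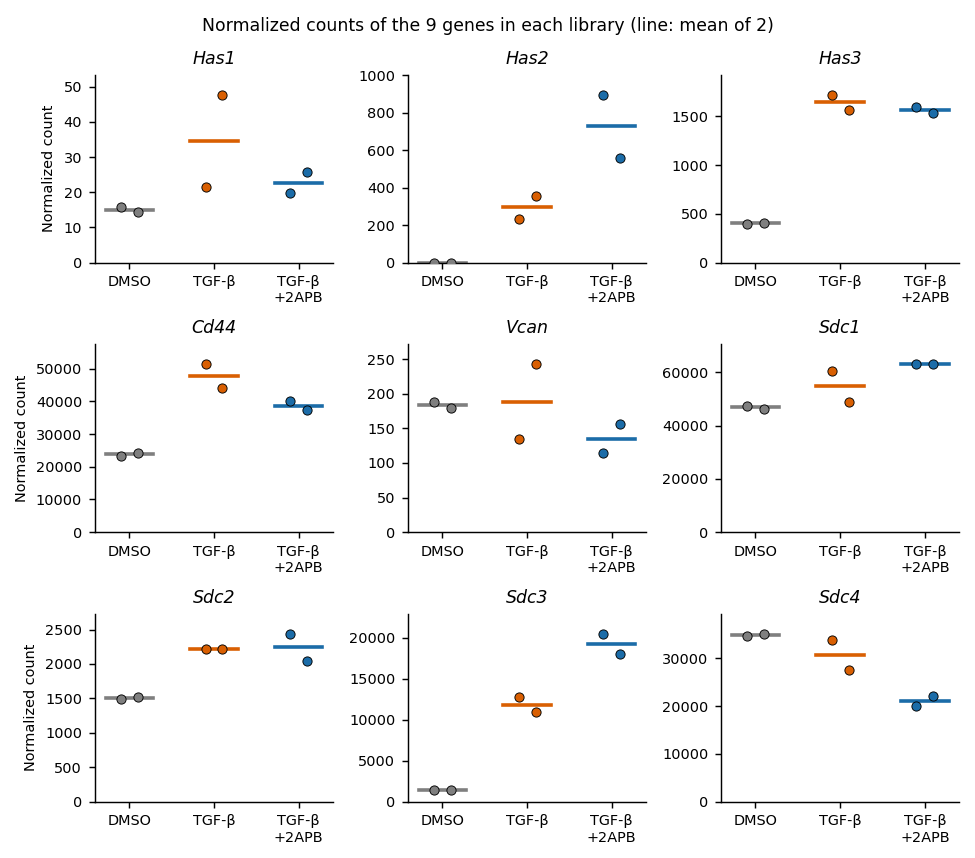
Normalized counts of the 9 genes (y axes, linear, starting at 0 and scaled to each gene) in the 2 libraries of DMSO, TGF-β and TGF-β+2APB (points), with the group mean as a line. Has2 stands at 0 in both DMSO libraries and between 232 and 897 in the 4 others, Sdc3 goes up from DMSO to TGF-β to TGF-β+2APB, and Sdc4 is lowest in TGF-β+2APB.

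Has2, the synthase that makes long hyaluronan chains in many mesenchymal cells, was switched from no counts to a clear signal. The gene lies on the minus strand at chr15:56665627-56694539 of GRCm38, and both DMSO libraries held 0 counts for it. The TGF-β libraries held 232 and 357 normalized counts, and the TGF-β+2APB libraries held 897 and 558. Every treated library was thus above every DMSO library, and both libraries with 2APB were above both with TGF-β alone. Against a floor of 6 deposited counts in each DMSO library, which is 3 steps of 2, Has2 was at least 48.7-fold higher in TGF-β (edgeR FDR 0.000751) and at least 120-fold higher in TGF-β+2APB (FDR 0.000294). By fitted fold change it ranked 9 of 2914 genes that rose with TGF-β and 9 of 3414 that rose with TGF-β+2APB, an order that depends on the prior count for a gene at 0.

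Between the treated groups the log2 difference of Has2 was 1.31 (SE 0.34), at an edgeR FDR of 0.0641, so the higher mean of 728 against 294 did not pass the test. It passed in 5 of 15 alternatives at an FDR of 0.05 or less (the stricter FDR of 0.01 is left out of this and the later tallies), with FDR values from 0.00703 (DESeq2) to 0.198 (without replicate 1 of TGF-β+2APB). Leaving out replicate 2 of TGF-β gave 0.0361 and leaving out replicate 2 of TGF-β+2APB gave 0.0436. With the replicate number as a block the FDR was 0.145, and with the TGF-β+2APB numbers exchanged in that block it was 0.0129. GC content correction gave 0.0246.

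The antisense transcript Has2os shares 182 exon bases with Has2, which is 4.3% of the Has2 exons, and the strand setting of the counting is not given in the sources used here. Its deposited counts were 0 and 0 in DMSO, 24 and 38 in TGF-β, and 50 and 58 in TGF-β+2APB. Has2os was at least 5.19-fold higher in TGF-β (edgeR FDR 0.00259) and at least 8.82-fold higher in TGF-β+2APB (FDR 0.00112) than in DMSO. With a mean of 28.25 over the 6 libraries, Has2os passed the filter through its treated groups. The 2 loci moved in the same direction, and Has2 held the larger counts in all 4 treated libraries. Reads from the shared bases could not be assigned to one strand.

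Has3, which makes shorter hyaluronan chains and is the common synthase of many epithelia, was the main synthase transcript before treatment. It lies on the plus strand at chr8:106870242-106884566. The DMSO libraries held 399 and 409 normalized counts, the TGF-β libraries 1724 and 1571, and the TGF-β+2APB libraries 1594 and 1531. Both treated groups lay far above DMSO and overlapped each other. Has3 rose 4.08-fold with TGF-β (log2 2.03 with an SE of 0.09, edgeR FDR 9.28e-05) and 3.87-fold with TGF-β+2APB (log2 1.95, SE 0.09, FDR 5.75e-05). Between the treated groups the log2 difference was -0.08 (SE 0.09, FDR 0.59). Has3 shares 352 exon bases (5.52%) with Chtf8 on the other strand, a gene at means of 14330 in DMSO and 16840 in TGF-β that was not called (log2 0.23, FDR 0.0946).

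Has1, the third synthase, was near the floor. Its gene spans chr17:17843323-17855205 on the minus strand. It had 15.7 and 14.5 normalized counts in DMSO, 21.4 and 47.7 in TGF-β, and 19.8 and 25.6 in TGF-β+2APB. The treated libraries were all above DMSO, but the TGF-β replicates lay far apart. The log2 fold changes against DMSO were 1.19 (SE 0.49, edgeR FDR 0.108) for TGF-β and 0.59 (FDR 0.368) for TGF-β+2APB, and neither passed the test. Without replicate 1 of TGF-β, the TGF-β value was 1.66 with an FDR of 0.0266. Between the treated groups the log2 difference of Has1 was -0.60 (FDR 0.433), which did not pass the test.

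Per kb of exon, which allows levels of different genes to be compared, the synthases changed in make-up as well as in sum. Together they held 66.67 ± 0.919 normalized counts per kb in DMSO, 335.3 ± 8.04 in TGF-β and 421.6 ± 62.5 in TGF-β+2APB (mean ± SD, n = 2). Has3 made up 94.7% and 95.2% of this sum in the DMSO libraries, 82% and 72.2% in TGF-β, and 53.6% and 63.6% in TGF-β+2APB. Has2 took 0% in DMSO, 16.6% and 24.7% in TGF-β, and 45.4% and 34.9% in TGF-β+2APB. Has3 thus remained the largest of the 3 in each library, and the shares of Has2 did not overlap between any of the groups. The mean share of Has1 was 5.01% in DMSO, 2.27% in TGF-β and 1.22% in TGF-β+2APB.

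**Figure D2:**
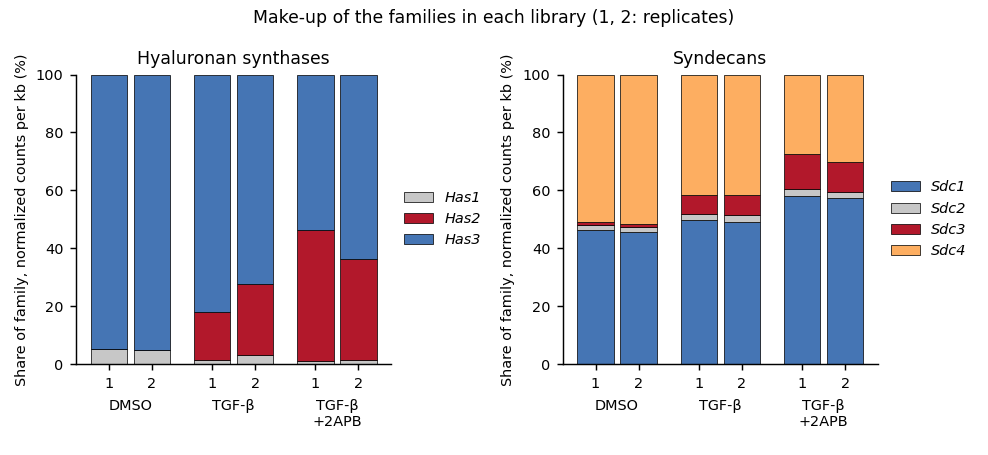
Share (y axis, percent of normalized counts per kb of exon) of each hyaluronan synthase (left) and each syndecan (right) in its family, in each library (bars 1 and 2 are the replicates of a group). Has2 takes 16.6% to 45.4% of the synthases in the treated libraries and 0% in DMSO, and Sdc4 goes from 51% and 51.8% of the syndecans in DMSO to 27.6% and 30.2% in TGF-β+2APB.

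Cd44, the main cell surface receptor for hyaluronan, was already abundant in DMSO and doubled with TGF-β. The gene lies on the minus strand at chr2:102811141-102901665, and the counts do not resolve its splice forms. DMSO libraries held 23378 and 24216 normalized counts, TGF-β libraries 51335 and 44166, and TGF-β+2APB libraries 40075 and 37319. The 3 groups did not overlap, and TGF-β+2APB lay between the others. Cd44 rose 2.01-fold with TGF-β (log2 1.0 with an SE of 0.09, edgeR FDR 0.000802) and 1.63-fold with TGF-β+2APB (log2 0.70, SE 0.09, FDR 0.00177). TGF-β+2APB differed from TGF-β by -0.30 on the log2 scale (SE 0.09, FDR 0.0809), which did not pass the test. It passed in 3 of 16 alternatives: DESeq2 (0.0329), scaling by library size (0.0417) and without replicate 2 of TGF-β (-0.41, FDR 0.0071). Per kb of exon, the mean level of Cd44 in DMSO was 3512 normalized counts, beside 63.33 for Has3, and Cd44 stayed above all 3 synthases in each library.

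Promoter windows in the RefSeq table of GRCm38.p6 were matched for 6 of the 9 genes, and those of Cd44 and Sdc3 are shown because both genes rose in both comparisons with DMSO. Each window holds the 250 bases before the start annotated in RefSeq, written along the strand of the gene. The gene spans given here are from GENCODE, and the 2 sources place some starts differently. The Sdc4 window (chr2:164443189-164443438) lies inside the span of its gene. Those of Sdc1 (chr12:8771146-8771395) and Has1 (chr17:17855189-17855438) run into theirs, while the 2 windows shown end where the span begins. Capitals mark the SMAD box CAGAC or its reverse complement GTCTG. The Cd44 window is chr2:102901666-102901915 on the minus strand and the Sdc3 window is chr4:130792287-130792536 on the plus strand.
Cd44: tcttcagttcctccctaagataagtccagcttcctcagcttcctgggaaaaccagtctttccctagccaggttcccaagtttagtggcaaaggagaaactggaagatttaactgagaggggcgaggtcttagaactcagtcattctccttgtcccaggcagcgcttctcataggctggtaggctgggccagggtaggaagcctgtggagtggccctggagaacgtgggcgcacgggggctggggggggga
Sdc3: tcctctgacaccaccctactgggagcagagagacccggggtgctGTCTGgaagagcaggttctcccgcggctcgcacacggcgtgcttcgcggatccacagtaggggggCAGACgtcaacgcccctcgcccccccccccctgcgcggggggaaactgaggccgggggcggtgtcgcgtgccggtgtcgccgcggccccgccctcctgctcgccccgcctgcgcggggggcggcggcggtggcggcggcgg
The Sdc3 window held a SMAD box 206 and another 141 bases before the start, that of Cd44 held none, and 42.2% of all 32851 windows of the same length held at least 1. Among the other windows, that of Has1 held 2, that of Sdc1 held 1, and those of Vcan and Sdc4 held none. Neither the AP-1 site TGAGTCA, read on both strands and found in 4.46% of windows, nor the E-box CAGGTG, likewise read on both strands and found in 17.2%, stood in any of the 6 windows. The Sdc3 window had 76.4% GC and 32 CpG pairs and that of Cd44 56.4% and 5, beside medians of 52.4% and 6 over all windows.

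Vcan, a large chondroitin sulfate proteoglycan that binds hyaluronan through its N-terminal domain, stayed at a low level in all groups. It lies on the minus strand at chr13:89655312-89742509. Its normalized counts were 189 and 179.7 in DMSO, 134 and 243 in TGF-β, and 115 and 156 in TGF-β+2APB. The TGF-β replicates lay on either side of the DMSO libraries, and both TGF-β+2APB libraries were below DMSO. The log2 fold change was 0.03 (SE 0.34, edgeR FDR 0.948) for TGF-β and -0.44 (SE 0.34, FDR 0.315) for TGF-β+2APB against DMSO, and none of the 3 comparisons passed the test for Vcan. Without replicate 2 of TGF-β the first of these was -0.45 (FDR 0.255). Per kb of exon its mean level was 12.74 normalized counts in DMSO, 13.04 in TGF-β and 9.359 in TGF-β+2APB.

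Sdc3, the syndecan best known from neural tissue and muscle, had the largest fold change of the 4 syndecans in each comparison. It lies on the plus strand at chr4:130792537-130826319. DMSO libraries held 1466 and 1438 normalized counts, TGF-β libraries 12780 and 10944, and TGF-β+2APB libraries 20499 and 18029. The 3 groups were well apart, in the order DMSO, TGF-β, TGF-β+2APB. Sdc3 rose 8.17-fold with TGF-β (log2 3.03 with an SE of 0.12, edgeR FDR 5.87e-05) and 13.3-fold with TGF-β+2APB (log2 3.73, SE 0.12, FDR 2.31e-05). TGF-β+2APB exceeded TGF-β 1.62-fold (log2 0.70, SE 0.11, FDR 0.013). This last call held in 13 of 16 alternatives at the same threshold and was lost without replicate 1 of DMSO (FDR 0.0513), replicate 2 of DMSO (0.0523) or replicate 1 of TGF-β+2APB (log2 0.57, FDR 0.0914). An antisense gene, Gm26716, covers 415 bases (6.93%) of the Sdc3 exons.

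Sdc4, the syndecan of focal adhesions, went the other way. The gene spans chr2:164424247-164443887 on the minus strand. Its normalized counts were 34717 and 35172 in DMSO, 33855 and 27627 in TGF-β, and 20024 and 22147 in TGF-β+2APB. Both libraries with 2APB were below all 4 others. Sdc4 fell in TGF-β+2APB against DMSO (log2 -0.73, SE 0.11, edgeR FDR 0.00327), and this call held in all 16 alternatives. Against TGF-β alone the log2 fold change was -0.54 (SE 0.11, FDR 0.0289), called in 10 of 16 alternatives. That call was lost with the replicate block (FDR 0.0681), in a fit of the 4 libraries compared (0.0848), and without replicate 1 of DMSO (0.087), replicate 2 of DMSO (0.0882), replicate 1 of TGF-β+2APB (0.16) or replicate 2 of TGF-β+2APB (0.0883). With TGF-β alone the value was -0.18 (SE 0.11, FDR 0.247), and -0.33 (FDR 0.0105) without replicate 1 of TGF-β.

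Sdc1, the main syndecan of epithelia, was the most abundant of the 9 genes by count in each library. It lies on the plus strand at chr12:8771323-8793715. DMSO libraries held 47241 and 46409 normalized counts, TGF-β libraries 60652 and 49018, and TGF-β+2APB libraries 63067 and 62966. Each group lay above the one before it without overlap, with the TGF-β replicates far apart. Sdc1 rose 1.35-fold with TGF-β+2APB against DMSO (log2 0.43, SE 0.11, edgeR FDR 0.0193), and the call was lost without either DMSO library (FDR 0.0975 without replicate 1, 0.111 without replicate 2) or either TGF-β+2APB library (0.103 and 0.0819). The log2 fold change was 0.23 (SE 0.11, FDR 0.147, or 0.0354 with GC content correction) for TGF-β against DMSO. It was 0.20 (SE 0.11, FDR 0.254, or 0.0329 with that correction) for TGF-β+2APB against TGF-β. Without replicate 2 of TGF-β the first of these was 0.37 (FDR 0.00127), and without replicate 1 of TGF-β the second was 0.36 (FDR 0.00698).

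Sdc2, a syndecan more typical of mesenchymal cells, rose in both treated groups. It lies on the plus strand at chr15:32920723-33034935, on the same chromosome as Has2. Normalized counts were 1492 and 1525 in DMSO, 2215 and 2216 in TGF-β, and 2439 and 2048 in TGF-β+2APB. The treated groups overlapped each other, and all 4 treated libraries were above DMSO. The rise was 1.47-fold with TGF-β (log2 0.55 with an SE of 0.10, edgeR FDR 0.00794) and 1.49-fold with TGF-β+2APB (log2 0.57, SE 0.10, FDR 0.00521). The first call was lost without replicate 1 (FDR 0.0723) or replicate 2 of DMSO (0.0611). The treated groups differed by 0.02 on the log2 scale (SE 0.10, FDR 0.919).

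**Figure D3:**
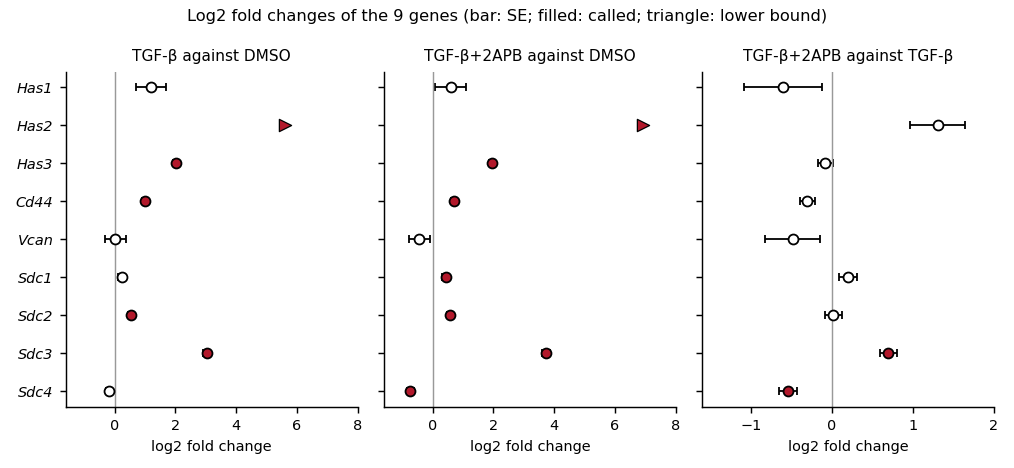
Log2 fold change (x axes, points, with bars of 1 SE) of the 9 genes in the 3 comparisons, filled where called at an FDR of 0.05 or less in edgeR; a triangle is a lower bound, for Has2 against DMSO, and the right panel has a narrower scale. Against DMSO, Has2, Has3, Cd44, Sdc2 and Sdc3 are filled in both panels, while against TGF-β alone the filled points are Sdc3 at 0.70 and Sdc4 at -0.54.

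In sum per kb of exon, the group means of the syndecans differed by less than the SD of the TGF-β replicates, while their make-up shifted. The 4 genes together held 26680 ± 24.8 normalized counts per kb in DMSO, 29070 ± 4110 in TGF-β and 28680 ± 201 in TGF-β+2APB (mean ± SD, n = 2). Sdc4 made up 51.4% ± 0.52 of this in DMSO, 41.5% ± 0.086 in TGF-β and 28.9% ± 1.9 in TGF-β+2APB. The share of Sdc1 was 46.1% ± 0.54 in DMSO, 49.5% ± 0.44 in TGF-β and 57.7% ± 0.47 in TGF-β+2APB. Without length scaling the share of Sdc1 was 55.3%, 55% and 59.7%, so its order between DMSO and TGF-β turned, while that of Sdc4 was 41.2%, 30.8% and 20%. Sdc4 was the largest of the 4 in both DMSO libraries and Sdc1 in all 4 treated libraries, but with the longest transcript as the length, or with none, Sdc1 led in DMSO too (49.8% against 47.8% with the longest transcript). Sdc3 went from 0.909% ± 0.012 to 6.83% ± 0.22 and 11.2% ± 1.1, and without length scaling these shares were 1.71%, 11.9% and 18.2%. Sdc2 stayed between 1.58% and 2.42% in single libraries.

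The 3 tested genes whose log2 profile over the 6 libraries was most like that of Has2, by the root mean square difference of log2 values centred on their mean, were Prss46 (0.22), Elmod1 (0.22) and Crispld2 (0.25). All 3 had 0 normalized counts in both DMSO libraries. For Cd44 the most similar genes were Kirrel (0.03), Cdc45 (0.04) and Map4 (0.04), and each of them was highest in the TGF-β libraries and between the other groups in TGF-β+2APB. These are descriptions over 13331 genes and 6 libraries that share the same treatments.

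Genes that supply, cut, bind and decorate the same chains were listed by role as 123 genes, of which 86 were tested. With TGF-β, 37 of them rose and 19 fell, so 65.1% were called beside 41.5% of all genes. With TGF-β+2APB against DMSO 37 rose and 27 fell, which is 74.4% beside 52.8%. Between TGF-β+2APB and TGF-β 11 rose and 11 fell, or 25.6% beside 17.5%. The count with TGF-β was 36 of 84 without replicate 1 of DMSO and 35 of 86 without replicate 2, where 20.7% and 21.7% of all genes were called. The count between the treated groups moved with the background too. It was 12 without either DMSO library (6.46% and 6.26% of all genes) and 14 of 85 without replicate 1 of TGF-β+2APB (7.38%), and 34 and 42 without replicate 1 and 2 of TGF-β (28.3% and 40.4%). Of the 86 genes, 3 (Fbn1, Tnfaip6, Ndst3) had a mean under 20 in DMSO and 7 (Stab2, Tlr4, Acan, Ambp, Tgfbr3, Hs3st3a1, Hpse) in a treated group, so that these 10 passed the filter through the groups where they were higher. With only the 76 genes that had a mean of 20 or more in each group, 67.1%, 76.3% and 25% were called in the same order, beside 40.7%, 51.6% and 17.2% of the 12233 such genes in all. The median log2 fold changes of the 86 genes were 0.19, 0.25 and 0.04 in the same order.

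Of 6 tested enzymes that make the sugar precursors of hyaluronan, 2 rose and 3 fell with TGF-β, at a median log2 fold change of -0.37. The share called was 83.3%, beside 41.5% of all genes tested. Uap1, which makes UDP-N-acetylglucosamine, held 2017 and 1948 normalized counts in DMSO and 5002 and 4862 in TGF-β. It rose by 1.31 with TGF-β (edgeR FDR 0.00024) and by 1.67 with TGF-β+2APB (FDR 7.09e-05), on the log2 scale. Gfpt1, the first enzyme of the hexosamine pathway, held 8232 and 8060 in DMSO, 3830 and 3910 in TGF-β, and 6551 and 6233 in TGF-β+2APB. It fell by 1.07 on the log2 scale with TGF-β (FDR 0.00024) and was higher by 0.72 in TGF-β+2APB than in TGF-β (FDR 0.00462), its 2APB libraries lying between the other groups. Against TGF-β alone, 3 of the 6 rose with TGF-β+2APB and none fell, or 50% called beside 17.5% of all genes. Uap1 was among the 3 (log2 0.35, edgeR FDR 0.0419). Its call held in 8 of 16 alternatives. It was lost with the replicate block (0.068, or 0.0526 with the TGF-β+2APB numbers exchanged). It was also lost in the 4 libraries compared (0.125) and without the filter on the mean (0.0575). The other losses came with either DMSO or either TGF-β+2APB library left out, at log2 values from 0.23 (without replicate 1 of TGF-β+2APB) to 0.43.

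On the degradation side, 3 of 8 tested genes rose with TGF-β and none fell, and 4 rose with TGF-β+2APB against DMSO. The shares called, 37.5% and 50%, were slightly under the 41.5% and 52.8% of all genes tested. Cemip, which binds hyaluronan and takes part in its breakdown, had 57 and 74.38 normalized counts in DMSO, 1270 and 1172 in TGF-β, and 3861 and 3017 in TGF-β+2APB. Its groups did not overlap. Cemip rose by 4.22 (SE 0.19, edgeR FDR 9.28e-05) with TGF-β, by 5.71 (SE 0.20, FDR 2.73e-05) with TGF-β+2APB against DMSO, and by 1.49 (SE 0.16, FDR 0.00556) between the treated groups, on the log2 scale. Hyal1, a lysosomal hyaluronidase, had 116 to 144.1 normalized counts in the DMSO and TGF-β libraries and 283.1 and 268.3 in TGF-β+2APB (log2 1.15 against DMSO, FDR 0.00405).

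**Figure D4:**
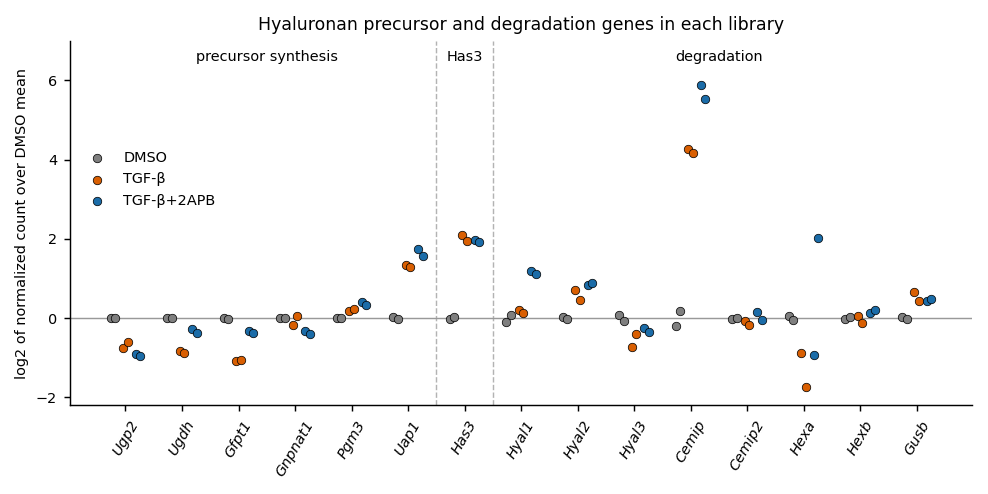
Log2 of the normalized count over the DMSO mean (y axis) for genes of hyaluronan precursor synthesis, Has3, and genes of hyaluronan degradation in each library (points; 2 per group). Has2 is left out because its DMSO counts are 0. Cemip stands above 4 in TGF-β and above 5 in TGF-β+2APB, and Gfpt1 is lowest in the TGF-β libraries.

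Among 5 other tested hyaluronan receptors, 1 rose and 1 fell with TGF-β, at a median log2 fold change of -1.93. The share called was 40%, near the 41.5% of all genes tested. Stab1, a scavenger receptor of the stabilin family, held 72.72 and 64.05 normalized counts in DMSO, 960.3 and 890.2 in TGF-β, and 2350 and 1985 in TGF-β+2APB. It rose by 3.75 (edgeR FDR 5.86e-05) and 4.98 (FDR 1.78e-05) on the log2 scale against DMSO and by 1.23 between the treated groups (FDR 0.00494). Its relative Stab2, a clearance receptor for hyaluronan, went from 141.5 and 138.4 in DMSO to 9.74 and 4.15 in TGF-β (log2 -4.30, FDR 0.00389) and to 9.899 and 27.62 in TGF-β+2APB (log2 -2.89, FDR 0.00832). The first value was -5.03 without replicate 1 of TGF-β, and the second -3.78 without replicate 2 of TGF-β+2APB, the library with the most Ptprc and Cd68. Hmmr, a hyaluronan receptor that also works at the mitotic spindle, fell by 1.18 with TGF-β+2APB against DMSO (FDR 0.0393), and that call was lost without either DMSO or either TGF-β+2APB library (FDR 0.0908 to 0.13) with the replicate block (0.0523) and without the filter on the mean (0.0517). Its TGF-β replicates held 736.3 and 1697 normalized counts.

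Of 14 other hyaluronan-binding matrix genes 5 were tested, and with TGF-β 1 rose and 2 fell. The share called was 60%, beside 41.5% of all genes tested. Tnfaip6, whose product moves heavy chains onto hyaluronan, had 3.931 and 4.132 normalized counts in DMSO, 21.43 and 35.28 in TGF-β, and 128.7 and 122.3 in TGF-β+2APB. Its mean in DMSO was under the filter, which it passed through the groups where it was high. The log2 fold change against DMSO was 2.77 (SE 0.42, edgeR FDR 0.00403) in TGF-β and 4.92 (SE 0.42, FDR 0.000346) in TGF-β+2APB. With so few counts in DMSO the ratios of the summed counts, 6.98 and 31.1, had exact 95% intervals for counting error of 2.44 to 27.4 and 11.9 to 116. Itih2, which encodes such a heavy chain, went from 13230 and 12410 in DMSO to 411 and 174.3 in TGF-β and 41.58 and 57.22 in TGF-β+2APB (log2 -5.45 and -8.02, FDR 0.000383 and 0.000113; the first was -6.19 without replicate 1 of TGF-β). Ambp, the light chain partner of the heavy chains in plasma, fell by 3.75 and 4.68 on the log2 scale (FDR 0.00162 and 0.000585). Itih2 and Ambp are typical liver products, and they moved in the same direction as the hepatocyte markers given above, all 5 of which fell in both comparisons with DMSO.

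Of 7 tested ADAMTS proteases, fibulins and fibrillins that cleave or bind versican, 3 rose and 3 fell with TGF-β. The share called was 85.7%, beside 41.5% of all genes tested. Fbln2, a fibulin that binds versican, held 8739 and 9444 normalized counts in DMSO, 204700 and 186900 in TGF-β, and 207300 and 209700 in TGF-β+2APB. The log2 fold changes against DMSO were 4.43 (edgeR FDR 2.12e-05) and 4.52 (FDR 1.03e-05). Fbn1, the microfibril protein fibrillin-1, had 0 counts in both DMSO libraries and 31.17 to 63.35 normalized counts in the treated ones, at least 6.69-fold higher in TGF-β (FDR 0.00215) and 9.15-fold in TGF-β+2APB (FDR 0.00111), and it passed the filter through its treated groups. Adamts15, a versican-cleaving protease, fell from 2105 and 2200 to 68.18 and 35.28 in TGF-β and 31.68 and 19.73 in TGF-β+2APB (log2 -5.37 and -6.38, FDR 0.000218 and 9.27e-05).

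The ERM family, which ties CD44 and syndecans to actin, and merlin (Nf2) were listed together as 4 genes, all tested. With TGF-β 2 of them rose and 1 fell, or 75% called beside 41.5% of all genes. Msn (moesin) had 27900 and 28220 normalized counts in DMSO and between 156900 and 173900 in the treated libraries. It rose by 2.59 with TGF-β (edgeR FDR 2.64e-05) and 2.52 with TGF-β+2APB (FDR 1.59e-05) on the log2 scale. Ezr (ezrin), the epithelial member, went down from 55820 and 53540 in DMSO to 34330 and 27470 in TGF-β and 15230 and 18290 in TGF-β+2APB. Its log2 fold changes were -0.82 (FDR 0.00593) and -1.71 (FDR 0.000311) against DMSO and -0.88 (FDR 0.0139) against TGF-β, the last not called without replicate 1 of TGF-β+2APB (0.0672).

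The 4 tested sheddases that cut CD44 and syndecans were all called with TGF-β, 2 higher and 2 lower, beside 41.5% of all genes. Mmp9 went from 27.52 and 20.66 normalized counts in DMSO to 3300 and 3275 in TGF-β and 1340 and 937.2 in TGF-β+2APB. It rose by 7.08 (SE 0.26, edgeR FDR 5.20e-05) with TGF-β and was lower by -1.53 (SE 0.19, FDR 0.0072) in TGF-β+2APB than in TGF-β, on the log2 scale. Mmp14, a membrane-bound protease that cleaves CD44, rose by 1.0 (FDR 0.000473) and 1.24 (FDR 0.000145) against DMSO. Of 6 cytoplasmic partners of syndecans, 1 rose and 3 fell with TGF-β (66.7% called, beside 41.5% of all genes). Sdcbp2, a PDZ protein of the syntenin family, rose with TGF-β+2APB against TGF-β (log2 1.30, FDR 0.0125). It had 224 and 217.9 normalized counts in TGF-β and 629.6 and 459.7 in TGF-β+2APB.

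**Figure D5:**
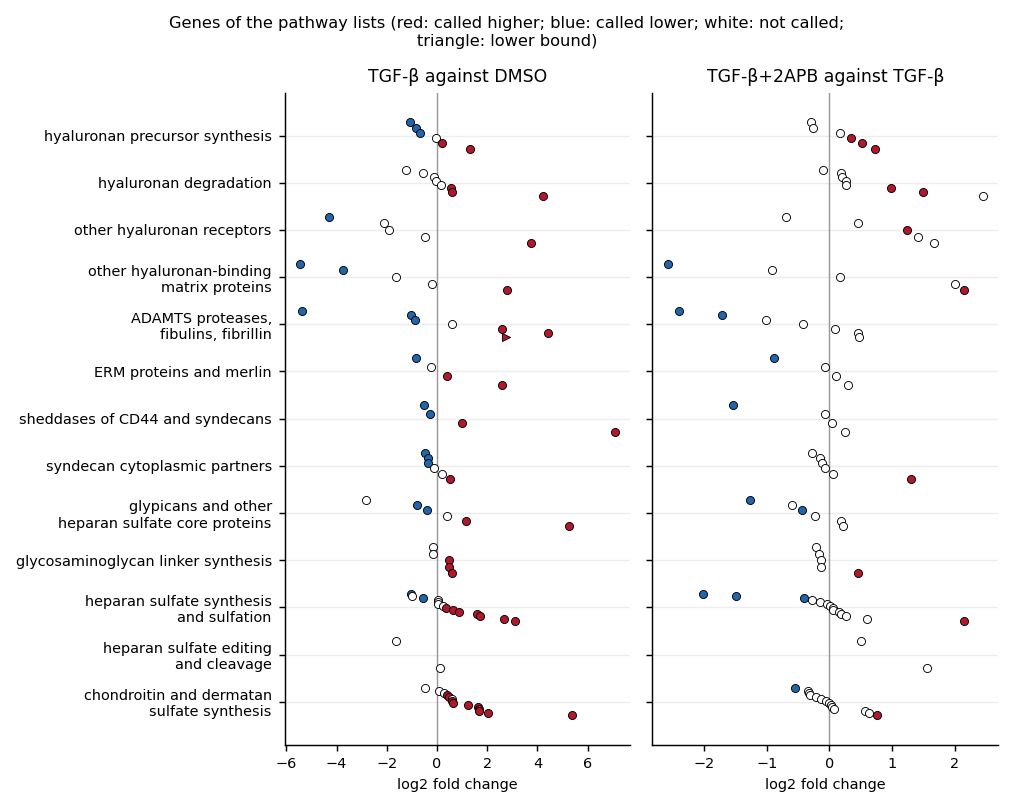
Log2 fold change (x axes) of each tested gene of the 13 lists (rows; Has, Cd44, Vcan and Sdc genes are not in them) for TGF-β against DMSO and for TGF-β+2APB against TGF-β. Red points are called higher and blue lower at an FDR of 0.05 or less in edgeR, white points are not called, and triangles are lower bounds. In the left panel 10 of 14 chondroitin and dermatan sulfate genes are red and none is blue. Of all genes tested, 21.8% were called higher and 19.7% lower there.

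Other heparan sulfate core proteins were tested for 6 genes, of which 2 rose and 2 fell with TGF-β. The share called was 66.7%, beside 41.5% of all genes tested. Gpc1 (glypican-1) had 157.2 and 152.9 normalized counts in DMSO, 6292 and 5489 in TGF-β, and 7276 and 6335 in TGF-β+2APB, with log2 fold changes of 5.25 (edgeR FDR 2.29e-05) and 5.45 (FDR 1.23e-05). Gpc6 (glypican-6) fell by 0.81 on the log2 scale with TGF-β (FDR 0.0146; 0.129 without replicate 2 of DMSO) and by 1.26 with TGF-β+2APB against TGF-β (FDR 0.0109). Tgfbr3, the TGF-β co-receptor betaglycan, held 190.7 and 165.3 normalized counts in DMSO, 19.48 and 31.13 in TGF-β, and 1.98 and 31.57 in TGF-β+2APB. Its fall with TGF-β+2APB against DMSO was called (log2 -3.40, FDR 0.0308) but not without DMSO replicate 1 (0.108) or 2 (0.0937). Its size rested on single libraries, at -2.50 without replicate 1 and -6.38 without replicate 2 of TGF-β+2APB. Its value with TGF-β was -2.81 (FDR 0.0612; 0.00223 and 0.00195 without TGF-β+2APB replicate 1 and 2).

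Among the enzymes that build the sugar chains of versican and the syndecans, more genes rose than fell with TGF-β. Of all genes tested, 21.8% were called higher and 19.7% lower. The shares called were 60% of the linker genes and 64.3% of the heparan sulfate synthesis genes, beside 41.5% of all genes. Of 5 tested genes of the linker that starts both kinds of chain, 3 rose with TGF-β and none fell, among them B4galt7 (log2 0.60, edgeR FDR 0.00692; 0.0672 without replicate 2 of DMSO). Of 14 tested genes of heparan sulfate synthesis and sulfation, 7 rose and 2 fell with TGF-β, at a median log2 fold change of 0.29. The 6-O-sulfotransferase Hs6st2 went from 1956 and 2035 normalized counts in DMSO to 8390 and 17210 in TGF-β and 20760 and 17770 in TGF-β+2APB (log2 2.68 and 3.27, FDR 0.00225 and 0.000757; the first was 2.07 without replicate 2 of TGF-β). The N-sulfotransferase Ndst3 had 7.862 and 14.46 in DMSO, 79.86 and 112.1 in TGF-β, and 19.8 and 27.62 in TGF-β+2APB, a rise of 3.09 with TGF-β (FDR 0.00356) and a value of -2.01 between TGF-β+2APB and TGF-β (FDR 0.0284). The 3-O-sulfotransferase Hs3st3a1 was higher by 2.14 in TGF-β+2APB than in TGF-β (FDR 0.015), with 71.27 and 53.27 against 13.64 and 14.53 normalized counts. Without replicate 1 of TGF-β+2APB the last 2 values had FDR values of 0.0965 and 0.061, and without either DMSO library between 0.0525 and 0.0604.

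Of 2 tested genes of heparan sulfate editing and cleavage, 0 were called by edgeR or by DESeq2 in any comparison, and 0 had an unadjusted p under 0.05. Of 14 tested genes of chondroitin and dermatan sulfate synthesis, the chains that versican carries, 10 rose and 0 fell with TGF-β, at a median log2 fold change of 0.60. The share called was 71.4%, beside 41.5% of all genes tested. With TGF-β+2APB against DMSO 9 rose and 1 fell, or 71.4% called beside 52.8% of all genes. Chst11, a chondroitin 4-O-sulfotransferase, held 194.6 and 163.2 normalized counts in DMSO, 7782 and 7282 in TGF-β, and 13710 and 11720 in TGF-β+2APB. It rose by 5.39 (SE 0.14, edgeR FDR 2.76e-05) and by 6.15 (SE 0.15, FDR 1.23e-05) on the log2 scale. Csgalnact1, which starts the chondroitin chain, rose by 2.02 (FDR 0.000103) and 1.47 (FDR 0.000149), and Ust, a uronyl 2-O-sulfotransferase, by 1.63 (FDR 0.00205) and 2.19 (FDR 0.000476). While these enzymes rose, the core protein Vcan did not pass the test in any of the 3 comparisons.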

How the data were processed

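RNA selected with oligo-dT from 2 biological replicates of each of 3 groups of NMuMG cells was sequenced as single-end reads. The authors aligned the reads with TopHat2 2.0.13 and summed them per gene with featureCounts; the deposited file holds these raw counts, without normalization. The submitters' processing notes name mm10, while the methods name a human genome; the entries carry mouse gene symbols, and the strand setting and gene annotation are not given in the sources used here. All values were even, for a reason not given, so the floor for lower bounds was set at 6 counts, covering counting error only. A spreadsheet had turned 25 names into dates; they were kept in the fits and not named.

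Counts were analyzed with edgeR 4.0.16 and limma 3.58.1 in R 4.3.3: TMM scaling, a mean of at least 20 normalized counts, and 1 quasi-likelihood model of the 3 groups with an F-test for each pair and Benjamini-Hochberg FDR of 0.05 or less over all genes tested. Each standard error (SE) was obtained by dividing the log2 value by the root of its F. Groups and replicates were taken from the sample titles. Positions, exon lengths and GC content came from GENCODE vM21 (GRCm38), to which 17517 entries (94.63%) were matched by symbol, and promoter windows from RefSeq (GRCm38.p6). Tables and plots were made with Python 3.11.15, pandas 2.3.3 and matplotlib 3.10.9. The procedure was tested on simulated data for TGF-β against DMSO over 13295 genes. There 69 of 100 genes changed by 1 on the log2 scale were called. Of those changed by 2, 100 of 100 were called, as were 6 of 13095 unchanged genes. How far these counts hold for the deposited libraries, whose replicate spread differed between the groups, was not tested.

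The members and the gene lists were chosen with earlier results of these data known. From each list, up to 3 genes were named, namely those called in any comparison with the largest log2 changes of 1 or more in size. Alternatives were DESeq2 1.42.0, RLE or library size scaling, no filter on the mean, at least 10 counts in every library, a replicate block, only the 4 libraries compared, counts divided by 2, an FDR of 0.01, each library left out in turn, and, for shares, other gene lengths. With 1 library left out, the lone library of its group is assumed to vary like the others. A GC content correction and a block with exchanged numbers were added after seeing the data. One gene listed as a check of the treatment is not reported here.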

Additional observations from a re-analysis of the deposited data

How the results depend on the processing

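With TGF-β and with TGF-β+2APB against DMSO, 5 and 7 of the 9 genes were called. Over the alternatives with both replicates of every group in the fit, these counts stayed within 4 to 6 and 6 to 7. In the same fits 25.2% to 51% and 36.6% to 66.9% of all genes were called. With a library left out, both counts tended to be higher where more of all genes were called. Between the treated groups the count of 2 became 4 with DESeq2 (27.7% of all genes called) and 4 with GC content correction (28.2%). It was 1 in the 4 libraries compared (6.54%) and 0 at an FDR of 0.01 (4.5%), where 4 had an unadjusted p under 0.05. Where a library left out made this count 0 or 4, that is given above. With the replicate block the count between the treated groups was 1 (10.1% of all genes), since Sdc4 was lost (FDR 0.0681). The block changed no other call of the 9 genes. Replicates share a number but no stated batch, and the Pearson correlation of their differences was 0.148, -0.458 and -0.255 between the groups, so the block is given as an alternative. With the TGF-β+2APB numbers exchanged the count between the treated groups was 3 (18.5% of all genes).

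Of the 86 list genes, 35 to 62 were called for TGF-β with a library left out (20.7% to 57.1% of all genes), 36 and 35 of them without replicate 1 and 2 of DMSO (20.7% and 21.7%). Between the treated groups the 22 became 12 to 42 with a library left out, 14 in the 4 libraries compared (6.54% of all genes) and 8 at an FDR of 0.01 (4.5%). With a library left out the share of all genes ran from 6.26% to 40.4%, with 12 list genes called without either DMSO library (6.46% and 6.26%) and 42 without TGF-β replicate 2 (40.4%).

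Some values that did not pass the test changed sign. Vcan with TGF-β was -0.03 with the replicate block and -0.45 to 0.40 with a library left out (-0.45 without replicate 2 of TGF-β, 0.00 without replicate 2 of DMSO), and -0.84 to 0.01 between the treated groups. Sdc2 between the treated groups was -0.02 by library size, -0.05 with GC content correction and -0.14 to 0.14 with a library left out. Hmmr (-0.49) ran from -1.21 to 0.00 with TGF-β and (-0.70) from -1.18 to 0.03 between the treated groups, each end without 1 TGF-β library, and Tgfbr3 between them (-0.59) from -3.59 to 0.29, each end without 1 TGF-β+2APB library. The causes were not tested. The median of all genes moved by at most 0.064 under any scaling.

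The replicate difference correlated with GC content over 12693 genes (Spearman 0.144, 0.551 and -0.254 in DMSO, TGF-β and TGF-β+2APB). With counts divided by 2, Has1 fell under the filter and was not tested, and the part of depth in its values was not tested.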
